A study of Arabidopsis thaliana with 4 samples.

Results

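The genes described here are 37 nuclear genes of the Calvin cycle and of photorespiration, chosen by identifier from the 36632 gene rows of the count tables. They comprise 4 Rubisco small subunit genes, Rubisco activase, 2 leaf carbonic anhydrases, 14 genes for enzymes that reduce and regenerate the sugar phosphates, 2 CP12 genes and 14 genes of the photorespiratory cycle. They were measured by RNA-seq of whole Arabidopsis rosettes at the stage of 9 leaves, in 2 *jmj26* libraries and 2 Col-0 libraries. *jmj26* is a T-DNA insertion line in Col-0 of the jumonji gene *JMJ26*, and all of its plants descend from 1 insertion stock, while Col-0 is the wild type. All plants were stratified for 2 days at 4°C and grown on soil at 21°C with 16 h of light. The methods state that rosettes were harvested one by one, but the labels do not say whether replicates 1 and 2 were separate plants or pools, so that p-values measure the spread between these libraries only.

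The Calvin cycle fixes CO2 in the chloroplast. Rubisco carboxylates ribulose bisphosphate, the product is reduced to triose phosphate, and most of the triose phosphate is rebuilt into the acceptor. Rubisco also reacts with oxygen, and photorespiration salvages the phosphoglycolate made in that side reaction through the chloroplast, the peroxisome and the mitochondrion, where glycine is decarboxylated, before glycerate returns to the chloroplast. In rosette leaves both cycles run in the light and their nuclear genes are among the most highly expressed.

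The libraries held 1998601 and 1497105 counts in *jmj26* and 1022041 and 740909 in Col-0, over gene and transposon rows. Counts of 3, taken as the smallest detectable level, corresponded to 1.501 to 2.004 CPM (counts relative to the size of the library, here all of its counts and below its gene counts after TMM scaling) in *jmj26* and 2.94 to 4.05 CPM in Col-0. Intervals and floors given here cover counting error only. The row of the targeted gene *JMJ26* (AT1G11950) had 0 and 2 counts in *jmj26*, against 1 and 0 in Col-0. It was under the floor in every library and gave no check of the labels. Because of the strand question described next, these counts do not give the level of its transcript. The library kit marks the strand of the transcript, and the strand setting of the counting was not given in the sources used here. The 27504 gene rows with no annotated gene on the opposite strand held 7.64% and 7.55% of the gene counts in *jmj26* and 4.31% and 5.47% in Col-0. Of the 37 genes, 28 belong to these rows, and their values may hold only a small part of the reads of their own transcripts. The summed level of 6 leaf marker genes was 855 and 798 CPM in *jmj26*, against 173 and 413 CPM in Col-0, with none of the 6 at 0. Of 8 root markers 4 were at 0 in every library, and the sum of the 8 was 98.3 and 112 CPM in *jmj26*, against 71.7 and 95.3 CPM in Col-0. Nearly all of that sum was *PYK10* (AT3G09260), a row with a gene on the opposite strand. It had 93.4 and 106 CPM in *jmj26*, against 66.7 and 91.7 CPM in Col-0. Of 6 flower markers 3 were at 0 in every library, and their summed counts were 3 and 1 in *jmj26*, against 1 and 0 in Col-0. The summed counts of 3 seed markers were 6 and 5 in *jmj26*, against 4 and 1 in Col-0. The leaf markers thus moved with the genes described below, and their part in the result was not tested. In bulk RNA, fewer cells of a type and less RNA per cell cannot be told apart.

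Genes of every step of both cycles had higher normalised counts in *jmj26* than in Col-0, but no single gene passed the threshold of the test. The rows of the 37 genes held 4000 and 2717 counts in *jmj26*, against 431 and 728 in Col-0. They made up 0.200% (0.194 to 0.206) and 0.182% (0.175 to 0.188) of the total in *jmj26*, against 0.0422% (0.0384 to 0.0463) and 0.0983% (0.0914 to 0.106) in Col-0, with 95% Wilson intervals in parentheses. Both *jmj26* libraries lay above both Col-0 libraries, and the mean share was 0.191% in *jmj26* and 0.0702% in Col-0, a ratio of 2.72. With 2 libraries against 2, the two-sided exact permutation test gave p = 0.3333, the smallest p that this design allows. Among the rows without a gene on the opposite strand, the 28 of the 37 genes that belong to them, which exclude *RCA* and *PGK1*, held 2.11% and 1.91% in *jmj26*, against 0.859% and 1.65% in Col-0, a ratio of 1.60.

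Of the 37 genes, 30 passed the filter on low counts and were tested among 5232 gene rows. For 12 of these 30 both Col-0 libraries reached the level that the filter asks for (9.64 CPM), and for 2 neither did, so that many entered through their *jmj26* counts and their direction was in part fixed by the filter. None of the 30 had an adjusted p below 0.05 in edgeR's quasi-likelihood test (Benjamini-Hochberg), where 0.0573% of all tested rows did. The smallest adjusted p was 0.109, and DESeq2 called 1 of the 30, *PGK1*. Without adjustment, 25 of the 30 had a p below 0.05 and were higher in *jmj26*, against 13.6% of all tested rows, and none was lower, against 2.12%. Both *jmj26* libraries lay above both Col-0 libraries for 27 of the 30 tested genes, against 26.8% of all tested rows. Among the 24 tested genes without a gene on the opposite strand, 19 had an unadjusted p below 0.05 and were higher in *jmj26*, against 38.3% of the tested rows of that kind, and 21 had both *jmj26* libraries above both Col-0 libraries, against 51.7%. The median log2 fold change of *jmj26* over Col-0 was 1.53 over the 30 genes, 0.0131 over all tested rows and 0.61 over the tested rows without a gene on the opposite strand. The genes are not replicates of each other, and their counts come from the same 4 libraries.

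**Figure D1:**
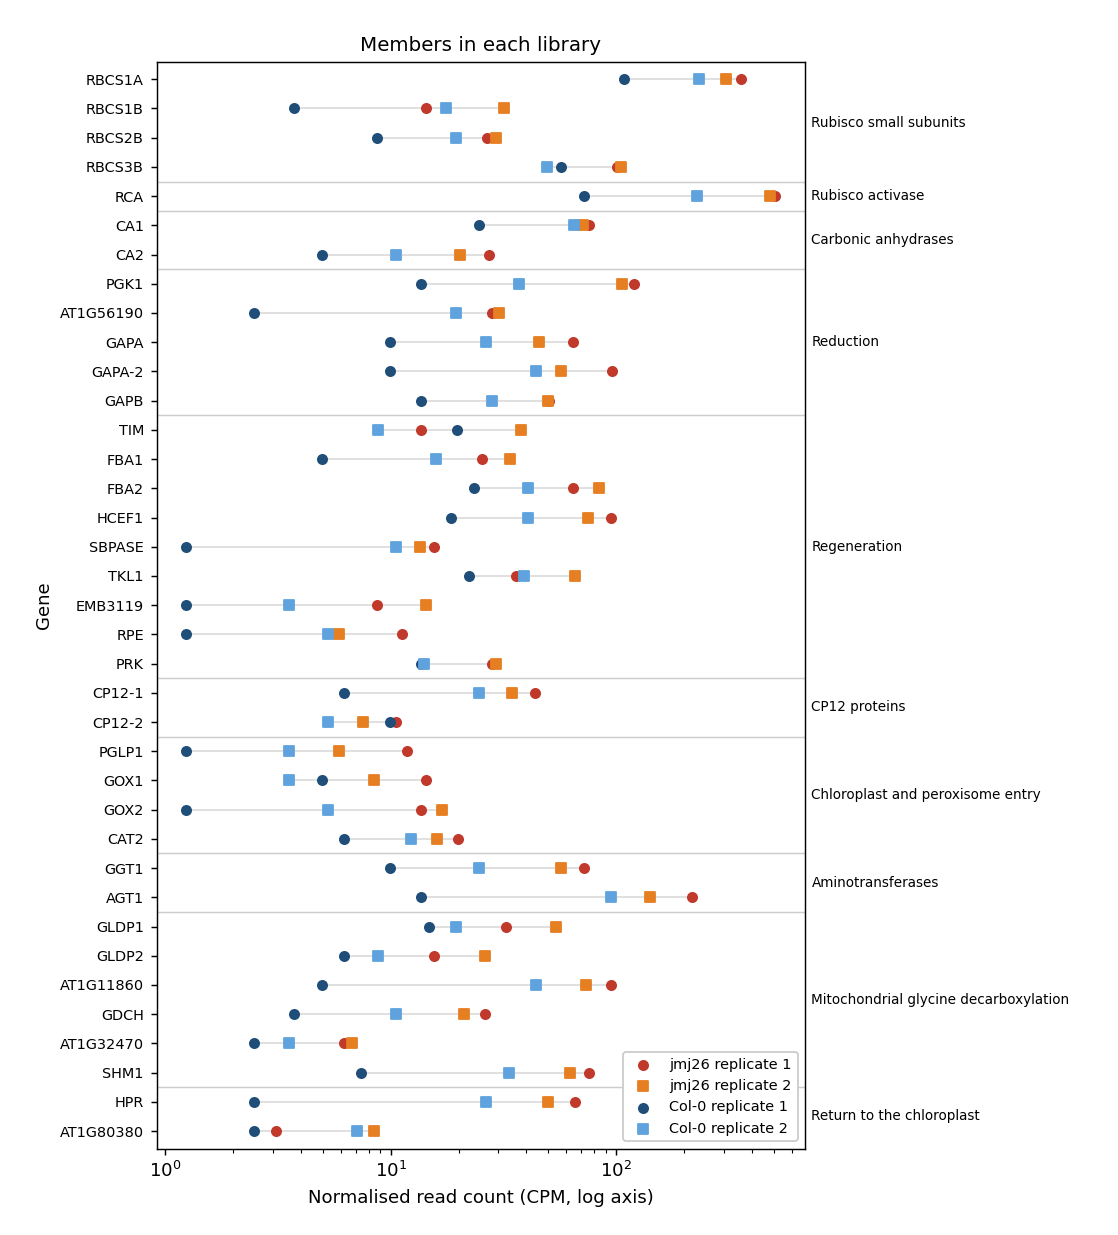
Normalised read counts (CPM, log axis) of the 37 genes in each library, grouped by step, with *jmj26* replicates in red and orange and Col-0 replicates in dark and light blue. For 27 of the 30 tested genes both *jmj26* points lie to the right of both Col-0 points, against 26.8% of all tested rows. The dark blue point of Col-0 replicate 1 is the lowest of the 4 in most rows.

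The 2 Col-0 libraries differed from each other nearly as much as the genotypes did. Col-0 replicate 2 was higher than Col-0 replicate 1 in 28 of the 30 tested genes, with a median log2 ratio of 1.41. In the tested rows without a gene on the opposite strand the same ratio had a median of 0.37, with 64.3% of the rows higher in replicate 2, and in those with one it was -0.035. The *jmj26* libraries were closer, with a median log2 ratio of replicate 2 over replicate 1 of -0.13 and 12 of the 30 genes higher in replicate 2. The low level in Col-0 replicate 1 therefore weighed on the fold changes given below.

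Of the 37 genes, *RBCS1A* and *RCA* had the highest levels per kb of exon in both genotypes, and both were higher in *jmj26*. *RBCS1A* (AT1G67090, chr1:25048158-25049667, minus strand) had 573 and 366 counts (357 and 308 CPM) in *jmj26*, against 88 and 132 counts (109 and 233 CPM) in Col-0. It averaged 332 ± 34.5 CPM in *jmj26* and 171 ± 87.8 CPM in Col-0 (SD, n = 2 each), and its log2 fold change was 0.99 (standard error 0.31), with an adjusted p of 0.166 in edgeR's quasi-likelihood test (Benjamini-Hochberg). Both *jmj26* libraries were above both Col-0 libraries, and the Col-0 libraries were further apart than the *jmj26* ones. The other 3 copies lie side by side on chromosome 5. *RBCS3B* (AT5G38410) had 162 and 125 counts (101 and 105 CPM) in *jmj26*, against 46 and 28 counts (56.8 and 49.4 CPM) in Col-0. Its libraries were close to each other within both genotypes, and its log2 fold change was 0.94 (standard error 0.19), with an unadjusted p of 0.00159 in edgeR's quasi-likelihood test. *RBCS2B* (AT5G38420) had 43 and 35 counts (26.8 and 29.4 CPM) in *jmj26*, against 7 and 11 counts (8.65 and 19.4 CPM) in Col-0. *RBCS1B* (AT5G38430) had 23 and 38 counts (14.3 and 31.96 CPM) in *jmj26*, against 3 and 10 counts (3.71 and 17.6 CPM) in Col-0, so that its genotypes overlapped. The log2 fold changes were 1.07 (standard error 0.39) for *RBCS2B* and 1.21 (standard error 0.68) for *RBCS1B*, where *RBCS1B* had an unadjusted p of 0.115 in edgeR's quasi-likelihood test. Per kb of exon, the copies averaged from 12.2 CPM (*RBCS1B*) to 262 CPM (*RBCS1A*) in *jmj26*, and from 5.64 to 135 CPM in Col-0. In both genotypes the order was *RBCS1A*, *RBCS3B*, *RBCS2B* and *RBCS1B*, and neighbours in this order did not overlap between libraries of 1 genotype, except *RBCS2B* and *RBCS1B* in Col-0. The 4 together summed to 499 and 474 CPM in *jmj26*, against 178 and 319 CPM in Col-0.

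The values of single copies are uncertain, because reads that align to several copies can be divided among them. The coding sequences of *RBCS1B* and *RBCS2B* were 97.25% identical in TAIR10.1, *RBCS1B* and *RBCS3B* shared an identical run of 230 bases, and *RBCS1A* was between 87.7% and 90.11% identical to the others. The same stretch of 90 coding bases is shown for the 4 copies because its 11 capitals, the positions at which the copies are not all the same, are what a read in that stretch has to tell them apart.
RBCS1A (chr1:25048874-25048963, minus strand): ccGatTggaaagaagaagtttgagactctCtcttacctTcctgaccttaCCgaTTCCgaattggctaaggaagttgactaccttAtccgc
RBCS1B (chr5:15384797-15384886, minus strand): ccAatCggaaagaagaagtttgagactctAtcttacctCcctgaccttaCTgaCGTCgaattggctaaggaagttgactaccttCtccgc
RBCS2B (chr5:15381619-15381708, minus strand): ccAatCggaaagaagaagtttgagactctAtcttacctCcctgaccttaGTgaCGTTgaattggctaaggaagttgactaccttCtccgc
RBCS3B (chr5:15377947-15378036, minus strand): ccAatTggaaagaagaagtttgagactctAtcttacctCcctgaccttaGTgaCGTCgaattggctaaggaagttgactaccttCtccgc

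*RCA* (AT2G39730, chr2:16570746-16573692, minus strand), which encodes Rubisco activase and removes inhibitory sugar phosphates from Rubisco, had the most counts of the set in *jmj26*. It had 818 and 574 counts (509 and 483 CPM) in *jmj26*, against 58 and 129 counts (71.7 and 228 CPM) in Col-0. Its mean was 496 ± 18.6 CPM in *jmj26* and 149.6 ± 110.3 CPM in Col-0 (SD, n = 2 each), and its log2 fold change was 1.77 (standard error 0.42), with an adjusted p of 0.111 in edgeR's quasi-likelihood test (Benjamini-Hochberg). The *jmj26* libraries nearly coincided, both Col-0 libraries were lower, and Col-0 replicate 1 was the lowest. *RCA* averaged 236 CPM per kb of exon in *jmj26* and 71.2 in Col-0. Carbonic anhydrases interconvert CO2 and bicarbonate, and the 2 leaf genes differed in how far the genotypes were apart. *CA1* (AT3G01500) had 122 and 85 counts (75.9 and 71.5 CPM) in *jmj26*, against 20 and 37 counts (24.7 and 65.3 CPM) in Col-0. The level of *CA1* in Col-0 replicate 2 came close to those of *jmj26*, and its log2 fold change of 0.78 (standard error 0.38) had an unadjusted p of 0.0793 in edgeR's quasi-likelihood test. *CA2* (AT5G14740) had 44 and 24 counts (27.4 and 20.2 CPM) in *jmj26*, against 4 and 6 counts (4.94 and 10.6 CPM) in Col-0, without overlap, and its log2 fold change was 1.70 (standard error 0.44).

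All 5 genes of the reduction step were tested and were higher in both *jmj26* libraries than in both Col-0 libraries, against 26.8% of all tested rows, each with an unadjusted p below 0.05, against 13.6%. Among the tested rows without a gene on the opposite strand these shares were 51.7% and 38.3%, and all of the 5 but *PGK1* belong to those rows. Without Col-0 replicate 1, 2 of the 5 (*PGK1* and *GAPA*) had such a p, against 4.54% of the rows tested then. Together they summed to 358 and 289 CPM in *jmj26*, against 49.4 and 155 CPM in Col-0, and their log2 fold changes lay between 1.32 and 2.24, with a median of 1.62. *PGK1* (AT3G12780, chr3:4060920-4063306, minus strand), which encodes a phosphoglycerate kinase of the chloroplast, had 192 and 126 counts (119.5 and 106 CPM) in *jmj26*, against 11 and 21 counts (13.6 and 37.1 CPM) in Col-0. Its mean was 113 ± 9.56 CPM in *jmj26* and 25.3 ± 16.6 CPM in Col-0 (SD, n = 2 each), a log2 fold change of 2.24 (standard error 0.37). It had the smallest unadjusted p of the 37 genes, 0.000417, and an adjusted p of 0.109 in edgeR's quasi-likelihood test (Benjamini-Hochberg), which ranged from 4.615e-10 to 0.296 over its 14 alternatives. The low end of that range came from the fit of every row with at least 1 count, where 592 of 22317 gene rows had an adjusted p below 0.05. The other phosphoglycerate kinase of the set, AT1G56190, had 45 and 36 counts (28.0 and 30.3 CPM) in *jmj26*, against 2 and 11 counts (2.47 and 19.4 CPM) in Col-0. Its *jmj26* libraries were alike, whereas Col-0 replicate 1 was far below Col-0 replicate 2, and its log2 fold change was 1.58 (standard error 0.60). Glyceraldehyde phosphate dehydrogenase, which uses NADPH to reduce the phosphorylated product, is built of A and B subunits. *GAPA* (AT3G26650), an A subunit gene, had 103 and 54 counts (64.1 and 45.4 CPM) in *jmj26*, against 8 and 15 counts (9.88 and 26.5 CPM) in Col-0. The other A subunit gene, *GAPA-2* (AT1G12900), had 154 and 68 counts (95.9 and 57.2 CPM) in *jmj26*, against 8 and 25 counts (9.88 and 44.1 CPM) in Col-0. *GAPB* (AT1G42970), the B subunit gene, had 81 and 59 counts (50.4 and 49.6 CPM) in *jmj26*, against 11 and 16 counts (13.6 and 28.2 CPM) in Col-0. The 3 subunit genes did not overlap between genotypes, and their log2 fold changes were 1.68 (standard error 0.42) for *GAPA*, 1.62 (standard error 0.55) for *GAPA-2* and 1.32 (standard error 0.34) for *GAPB*.

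The 9 genes of regeneration were less uniform. Of 7 tested, 4 had an unadjusted p below 0.05 and were higher in *jmj26*, against 13.6% of all tested rows, and 1 (*HCEF1*) did without Col-0 replicate 1, against 4.54%. With all libraries, 38.3% of the tested rows without a gene on the opposite strand had such a p and were higher in *jmj26*. All of the 7 but *HCEF1* and *PRK* belong to those rows. The median log2 fold change of the 7 was 1.24. The summed level of the 9 genes was 298 and 359 CPM in *jmj26*, against 106 and 178 CPM in Col-0. *HCEF1* (AT3G54050, chr3:20016837-20018822, plus strand), the fructose bisphosphatase of the chloroplast, had 152 and 89 counts (94.6 and 74.9 CPM) in *jmj26*, against 15 and 23 counts (18.5 and 40.6 CPM) in Col-0. Its log2 fold change was 1.58 (standard error 0.34), with an unadjusted p of 0.00216 and an adjusted p of 0.109 in edgeR's quasi-likelihood test (Benjamini-Hochberg). Of the 2 aldolases, which join triose phosphates, *FBA1* (AT2G21330) had 41 and 40 counts (25.5 and 33.7 CPM) in *jmj26*, against 4 and 9 counts (4.94 and 15.9 CPM) in Col-0. The other aldolase, *FBA2* (AT4G38970), had 103 and 100 counts (64.1 and 84.1 CPM) in *jmj26*, against 19 and 23 counts (23.5 and 40.6 CPM) in Col-0. Neither aldolase overlapped between genotypes, with log2 fold changes of 1.60 (standard error 0.47) for *FBA1* and 1.24 (standard error 0.31) for *FBA2*. *PRK* (AT1G32060), which encodes phosphoribulokinase, the enzyme that makes the CO2 acceptor, had 45 and 35 counts (28.0 and 29.4 CPM) in *jmj26*, against 11 and 8 counts (13.6 and 14.1 CPM) in Col-0. Within each genotype its libraries nearly coincided, and its log2 fold change was 1.05 (standard error 0.30).

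Both *TIM* and *TKL1* overlapped between the genotypes. *TIM* (AT2G21170), the triose phosphate isomerase of the chloroplast, had 22 and 45 counts (13.7 and 37.9 CPM) in *jmj26*, against 16 and 5 counts (19.8 and 8.82 CPM) in Col-0. Its highest library was *jmj26* replicate 2 and its lowest Col-0 replicate 2, the log2 fold change of 0.72 (standard error 0.59) had an unadjusted p of 0.264 in edgeR's quasi-likelihood test, and without *jmj26* replicate 2 it was -0.21. *TKL1* (AT3G60750), a transketolase, had 58 and 78 counts (36.1 and 65.6 CPM) in *jmj26*, against 18 and 22 counts (22.2 and 38.8 CPM) in Col-0. *jmj26* replicate 1 lay under Col-0 replicate 2, and the log2 fold change of 0.76 (standard error 0.40) had an unadjusted p of 0.0969, again from edgeR's quasi-likelihood test. *SBPASE* (AT3G55800), which encodes sedoheptulose bisphosphatase, did not overlap, with 25 and 16 counts (15.6 and 13.5 CPM) in *jmj26*, against 1 and 6 counts (1.24 and 10.6 CPM) in Col-0. The single count in Col-0 replicate 1 was under the floor, and the log2 fold change of 1.49 (standard error 0.66) had an unadjusted p of 0.0584 in edgeR's quasi-likelihood test. *RPE* (AT5G61410), the ribulose phosphate epimerase, had 18 and 7 counts in *jmj26*, against 1 and 3 counts in Col-0, and was not tested. The ratio of its pooled counts, scaled by library size, was 3.08 (95% interval 1.06 to 12.2), with an exact interval for counting error.

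*EMB3119* (AT3G04790, chr3:1313297-1314288, plus strand) encodes ribose phosphate isomerase and was also not tested, with 14 and 17 counts in *jmj26*, against 1 and 2 counts in Col-0. Both Col-0 libraries were under the floor, and the ratio of pooled counts was 5.09 (95% interval 1.59 to 26.01). It is the member of the set with the longest overlap with a gene on the opposite strand, the noncoding RNA gene AT3G01505 (chr3:1313893-1314127, minus strand), whose 235 bases all lie in the coding sequence of *EMB3119*. AT3G01505 had 4691 and 3253 counts in *jmj26*, against 2359 and 1578 counts in Col-0. Its normalised level was 2920.0 and 2736 CPM in *jmj26*, against 2914 and 2784 CPM in Col-0. The genotypes overlapped, and its log2 fold change was -0.01 (standard error 0.12), with an adjusted p of 0.994 in edgeR's quasi-likelihood test (Benjamini-Hochberg). Of the counts on both rows, *EMB3119* held 0.298% (95% Wilson interval 0.177 to 0.499) and 0.520% (0.325 to 0.831) in *jmj26*, against 0.0424% (0.00748 to 0.240) and 0.127% (0.0347 to 0.460) in Col-0. Per kb of exon, *EMB3119* had 8.78 and 14.4 CPM in *jmj26* and 1.25 and 3.56 CPM in Col-0, where AT3G01505 had between 11640 and 12420 CPM in the 4 libraries. Whether the counts of AT3G01505 come from that RNA or from *EMB3119* read on the other strand was not tested. Its interval is shown as it reads on the strand of *EMB3119*, since counts from either strand fall on the same letters, here in lower case throughout.
AT3G01505 interval on the strand of EMB3119 (chr3:1313893-1314127, plus strand): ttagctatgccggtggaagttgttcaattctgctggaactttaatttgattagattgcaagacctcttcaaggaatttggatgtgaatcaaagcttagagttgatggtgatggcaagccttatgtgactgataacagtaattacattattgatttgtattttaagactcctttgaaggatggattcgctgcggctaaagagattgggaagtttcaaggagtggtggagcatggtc

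**Figure D2:**
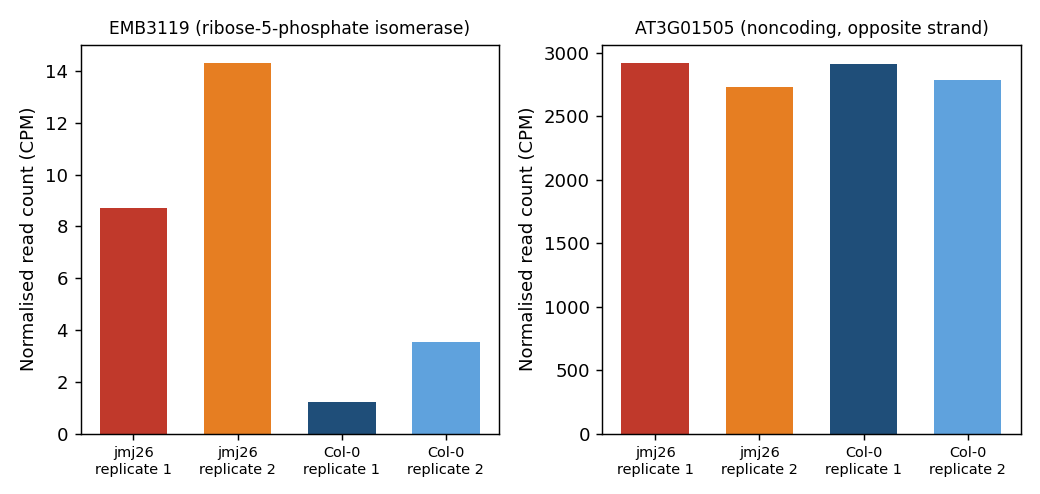
Normalised read counts (CPM) of *EMB3119* on the left and of AT3G01505, the noncoding RNA gene inside it on the opposite strand, on the right, with 1 bar per library and *jmj26* left of Col-0. The axes differ in scale: the *EMB3119* bars reach from 1.24 CPM in Col-0 replicate 1 to 14.3 CPM in *jmj26* replicate 2, whereas all AT3G01505 bars lie between 2736 and 2920 CPM.

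Of the other members with a gene on the opposite strand, *RCA*, *PGK1*, *HCEF1*, *PRK*, *GOX1*, *CAT2*, *GLDP1* and AT1G32470 overlapped it by between 3 and 167 bases. The opposite rows of *HCEF1* (AT3G54060), *PRK* (*NSI*, AT1G32070), *GOX1* (AT3G14430) and AT1G32470 (AT1G32460) had 247 to 907 counts per *jmj26* library and 115 to 482 per Col-0 library. Their log2 fold changes were small, at -0.01 for AT3G54060, 0.07 for *NSI*, -0.23 for AT3G14430 and 0.04 for AT1G32460, and all 4 overlapped between genotypes. The opposite rows of *RCA* (AT2G39725), *PGK1* (AT3G12775), *CAT2* (AT4G35080) and *GLDP1* (*CBL10*, AT4G33000) held at most 27 counts in any library. Reads of these genes that were assigned to a member cannot be told apart from reads of the member itself.

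CP12 proteins bind glyceraldehyde phosphate dehydrogenase and phosphoribulokinase and hold them inactive in the dark. *CP12-1* (AT2G47400) had 70 and 41 counts (43.6 and 34.5 CPM) in *jmj26*, against 5 and 14 counts (6.18 and 24.7 CPM) in Col-0. It did not overlap between genotypes, and its log2 fold change was 1.46 (standard error 0.50). *CP12-2* (AT3G62410) was not tested and overlapped between genotypes, with 17 and 9 counts in *jmj26*, against 8 and 3 counts in Col-0, and the ratio of pooled counts was 1.16 (95% interval 0.556 to 2.61).

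The photorespiratory genes had a median log2 fold change of 1.85 over 10 tested of 14 genes, and the Calvin cycle genes one of 1.39 over 18 tested of 21. Of the 10 photorespiratory genes, *AGT1* and *GLDP1* alone reached the level of the filter in both Col-0 libraries, and *GOX2* and *GLDP2* in neither. Many of the 10 thus entered through their *jmj26* counts, and their direction was in part fixed by the filter. All 10 had an unadjusted p below 0.05 and were higher in *jmj26*, as were 14 of the 18, against 13.6% of all tested rows and 38.3% of those without a gene on the opposite strand. Without Col-0 replicate 1, 5 of the 10 photorespiratory genes and 5 of the 18 Calvin cycle genes had such a p, against 4.54% of the rows tested then, and the medians were 1.001 and 0.7165. In that fit the median over the tested rows without a gene on the opposite strand was 0.57. The difference between the cycles was not tested. The photorespiratory genes summed to 669 and 547 CPM in *jmj26*, against 81.5 and 298 CPM in Col-0.

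At the entry of the pathway most counts were close to the floor. *PGLP1* (AT5G36700), the phosphoglycolate phosphatase of the chloroplast, had 19 and 7 counts in *jmj26*, against 1 and 2 counts in Col-0, and its ratio of pooled counts was 4.27 (95% interval 1.31 to 22.0). Its coding sequence was identical at each of its 1089 bases to that of AT5G36790, a row with 15 and 7 counts in *jmj26*, against 1 and 2 counts in Col-0, so that these 2 rows cannot be told apart. Glycolate oxidase makes glyoxylate in the peroxisome, and its 2 genes *GOX1* and *GOX2* lie next to each other and were 90.91% identical in their coding sequence. *GOX2* (AT3G14415, chr3:4818251-4821013, plus strand) had 22 and 20 counts (13.7 and 16.8 CPM) in *jmj26*, against 1 and 3 counts (1.24 and 5.29 CPM) in Col-0. The *jmj26* libraries were alike and Col-0 was at or under the floor of 3 counts, and the ratio of pooled counts was 5.17 (95% interval 1.88 to 19.9). *GOX1* (AT3G14420) was not tested, with 23 and 10 counts in *jmj26*, against 4 and 2 counts in Col-0 and a ratio of 2.71 (95% interval 1.12 to 7.91). *CAT2* (AT4G35090), the catalase that removes the hydrogen peroxide made by glycolate oxidase, had 32 and 19 counts (19.9 and 16.0 CPM) in *jmj26*, against 5 and 7 counts (6.18 and 12.4 CPM) in Col-0. It did not overlap, and its log2 fold change was 1.03 (standard error 0.43).

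Both aminotransferases, which turn glyoxylate into glycine in the peroxisome, were higher in *jmj26*. *GGT1* (AT1G23310, chr1:8268385-8272021, minus strand), which uses glutamate as donor, had 116 and 68 counts (72.2 and 57.2 CPM) in *jmj26*, against 8 and 14 counts (9.88 and 24.7 CPM) in Col-0. Its mean was 64.7 ± 10.6 CPM in *jmj26* and 17.3 ± 10.5 CPM in Col-0 (SD, n = 2 each), and its log2 fold change was 1.99 (standard error 0.39), with an unadjusted p of 0.00114 and an adjusted p of 0.109 in edgeR's quasi-likelihood test (Benjamini-Hochberg). *AGT1* (AT2G13360, chr2:5538740-5541479, minus strand), which uses serine, had 350 and 168 counts (218 and 141 CPM) in *jmj26*, against 11 and 54 counts (13.6 and 95.3 CPM) in Col-0. The genotypes did not overlap, but the libraries within each were far apart, with means of 179.6 ± 54.1 CPM in *jmj26* and 54.4 ± 57.8 CPM in Col-0 (SD, n = 2 each). Its log2 fold change was 1.83 (standard error 0.63), with an adjusted p of 0.193 in edgeR's quasi-likelihood test (Benjamini-Hochberg). *AGT1* was the most abundant photorespiratory gene per kb of exon, with 86.2 CPM per kb of exon in *jmj26* and 26.1 in Col-0.

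In the mitochondrion the glycine decarboxylase complex, made of P, T, H and L proteins, works with serine hydroxymethyltransferase to make serine from glycine. The 6 genes of this step summed to 251 and 243 CPM in *jmj26*, against 39.5 and 120.0 CPM in Col-0. The 5 that were tested each had an unadjusted p below 0.05, against 13.6% of all tested rows that were below it and higher in *jmj26*. This share was 38.3% among the tested rows without a gene on the opposite strand, to which all of the 5 but *GLDP1* belong. The log2 fold changes of the 5 lay between 1.33 and 1.92. Without Col-0 replicate 1 they lay between 0.80 and 1.08. In that fit the median over the tested rows without a gene on the opposite strand was 0.57. *GLDP1* (AT4G33010), a gene of the P protein that decarboxylates glycine, had 52 and 64 counts (32.4 and 53.8 CPM) in *jmj26*, against 12 and 11 counts (14.8 and 19.4 CPM) in Col-0. The second P protein gene, *GLDP2* (AT2G26080), had 25 and 31 counts (15.6 and 26.1 CPM) in *jmj26*, against 5 and 5 counts (6.18 and 8.82 CPM) in Col-0. In both P protein genes *jmj26* replicate 2 was the highest library and the Col-0 libraries were close to each other, with log2 fold changes of 1.33 (standard error 0.37) for *GLDP1* and 1.47 (standard error 0.47) for *GLDP2*. AT1G11860, the T protein gene, which passes the carbon unit to tetrahydrofolate, had 152 and 87 counts (94.6 and 73.2 CPM) in *jmj26*, against 4 and 25 counts (4.94 and 44.1 CPM) in Col-0. Col-0 replicate 1 was far below the other 3 libraries of AT1G11860, and its log2 fold change was 1.92 (standard error 0.62). *GDCH* (AT2G35370), a gene of the H protein that carries the intermediate, had 42 and 25 counts (26.1 and 21.0 CPM) in *jmj26*, against 3 and 6 counts (3.71 and 10.6 CPM) in Col-0. The other H protein gene, AT1G32470, was not tested, with 10 and 8 counts in *jmj26*, against 2 and 2 counts in Col-0 and a ratio of pooled counts of 2.22 (95% interval 0.730 to 9.0), an interval that includes 1. *SHM1* (AT4G37930), the serine hydroxymethyltransferase, had 122 and 74 counts (75.9 and 62.3 CPM) in *jmj26*, against 6 and 19 counts (7.41 and 33.5 CPM) in Col-0. *GDCH* and *SHM1* did not overlap between genotypes, with log2 fold changes of 1.83 (standard error 0.47) for *GDCH* and 1.88 (standard error 0.50) for *SHM1*.

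The return of carbon to the Calvin cycle was represented by 2 genes. *HPR* (AT1G68010, chr1:25493193-25496053, plus strand), the hydroxypyruvate reductase of the peroxisome, had 105 and 59 counts (65.4 and 49.6 CPM) in *jmj26*, against 2 and 15 counts (2.47 and 26.5 CPM) in Col-0. It averaged 57.5 ± 11.1 CPM in *jmj26* and 14.5 ± 17.0 CPM in Col-0 (SD, n = 2 each), with a log2 fold change of 2.16 (standard error 0.64) and an adjusted p of 0.146 in edgeR's quasi-likelihood test (Benjamini-Hochberg). The low count of Col-0 replicate 1 was under the floor, and without that library the log2 fold change was 0.99. Glycerate kinase (AT1G80380) overlapped between the genotypes and was not tested, with 5 and 10 counts in *jmj26*, against 2 and 4 counts in Col-0 and a ratio of pooled counts of 1.23 (95% interval 0.451 to 3.87).

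**Figure D3:**
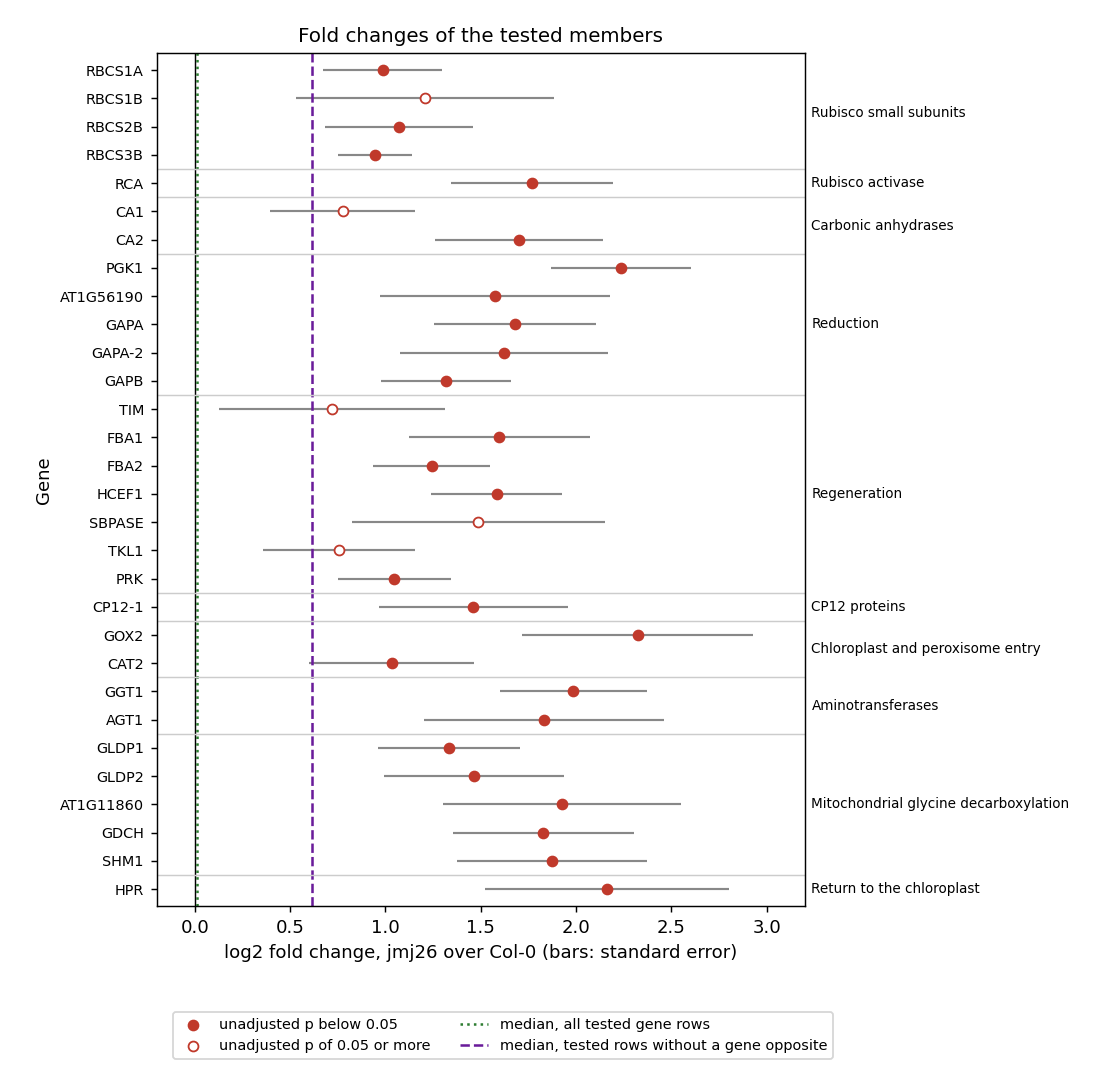
Log2 ratios of *jmj26* to Col-0 fitted for the 30 tested genes by step, with bars for the standard error, filled points for an unadjusted p below 0.05 and dashed or dotted lines for the medians of background rows. All 30 points lie to the right of 0, between 0.72 for *TIM* and 2.32 for *GOX2*, and right of the median of 0.61 over the tested rows without a gene on the opposite strand.

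The size of the difference depended on 1 Col-0 library and on the rows used for scaling. Without Col-0 replicate 1, 36 of the 37 genes were tested, the lone Col-0 library being assumed to vary like the *jmj26* ones. The median log2 fold change of these 36 was 0.85, against 0.57 over the rows without a gene on the opposite strand that were tested then. Of these 36, 10 had an unadjusted p below 0.05 and were higher in *jmj26*, against 4.54% of the rows tested then, and their lowest adjusted p was 0.0798, that of *PGK1*, in edgeR's quasi-likelihood test (Benjamini-Hochberg). *PGK1* kept a log2 fold change of 1.48 in that fit and *RCA* one of 0.997, whereas *CA1* had 0.049 and *RBCS1A* 0.39. Without Col-0 replicate 2 the median was 2.41, and 21 of 36 genes had an adjusted p below 0.05 in the same test, against 6.65% of the rows tested then. In that fit the median over the tested rows without a gene on the opposite strand was 1.17. With scaling factors computed from the rows without a gene on the opposite strand, the median of all tested rows moved to -0.44. The median of the tested rows without a gene on the opposite strand moved to 0.16, and that of the 30 genes to 1.08. Under that scaling 16 of the 30 had an unadjusted p below 0.05 and were higher in *jmj26*, against 8.75% of all tested rows. All 30 fold changes were above 0 in both of these fits, and of the 6 further genes tested without Col-0 replicate 1 the glycerate kinase gene AT1G80380 was below 0, at -0.46.

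**Figure D4:**
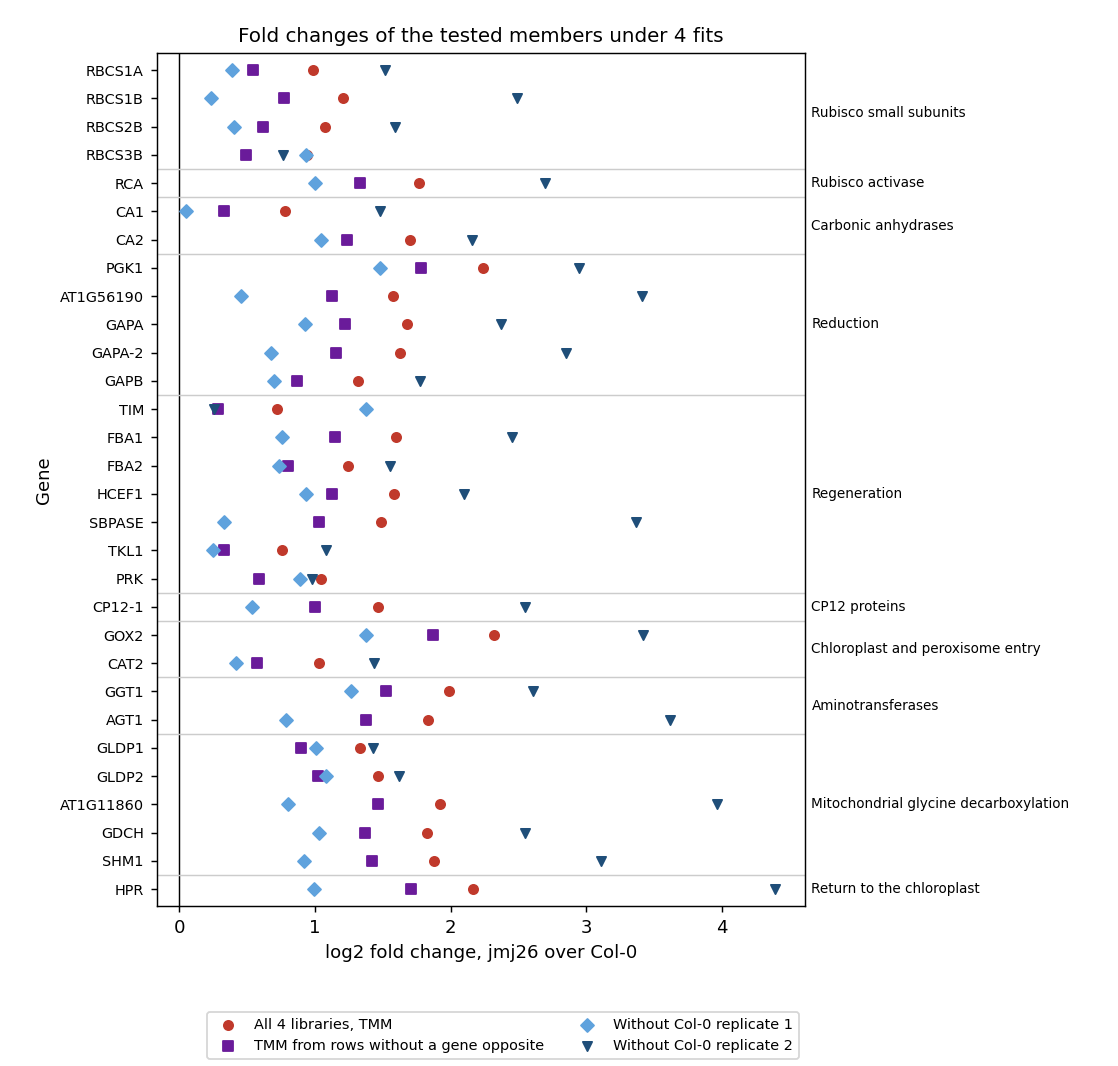
Log2 ratios of *jmj26* to Col-0 fitted for the 30 tested genes in 4 fits: all 4 libraries, scaling from rows without a gene on the opposite strand, without Col-0 replicate 1, and without Col-0 replicate 2. For most genes the order is the same, with the light blue diamonds (without Col-0 replicate 1) lowest and the dark blue triangles (without Col-0 replicate 2) highest, and *HPR* spans from 0.99 to 4.40.

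Among other genes of these pathways, those with an unadjusted p below 0.05 were again all higher in *jmj26*. Of 43 listed Rubisco assembly factors, transporters, isozymes and auxiliary enzymes, 42 were found in the files and 19 were tested. Of the 19, 9 had an unadjusted p below 0.05 and were higher in *jmj26*, against 13.6% of all tested rows, none was lower, none had an adjusted p below 0.05 in edgeR's quasi-likelihood test (Benjamini-Hochberg), and the median log2 fold change was 1.29. The 9 comprised 6 of the 8 genes without a gene on the opposite strand, against 38.3% of all tested rows of that kind. The other 3 were among the 11 with one, against 13.6% of all tested rows of either kind. The median log2 fold change of these 11 was 0.24, against -0.031 over all tested rows with a gene on the opposite strand. The genes named next had the smallest p of the list, so that their direction follows from that choice. AT5G28500, a homologue of the Rubisco accumulation factor of maize, had 72 and 47 counts (44.8 and 39.5 CPM) in *jmj26*, against 10 and 8 counts (12.4 and 14.1 CPM) in Col-0. The catalase *CAT3* (AT1G20620) had 75 and 52 counts (46.7 and 43.7 CPM) in *jmj26*, against 4 and 10 counts (4.94 and 17.6 CPM) in Col-0. Neither overlapped between genotypes. The chloroplast triose phosphate translocator *APE2* (AT5G46110), which exports the product of the cycle, had 56 and 34 counts (34.9 and 28.6 CPM) in *jmj26*, against 7 and 8 counts (8.65 and 14.1 CPM) in Col-0. *GLU1* (AT5G04140), the ferredoxin-dependent glutamate synthase that takes up photorespiratory ammonium, had 146 and 98 counts (90.9 and 82.4 CPM) in *jmj26*, against 10 and 24 counts (12.4 and 42.3 CPM) in Col-0. In both of these the *jmj26* libraries were alike and above Col-0. Of the chaperonin system that folds Rubisco, *CPN20* (AT5G20720) had 163 and 101 counts (102 and 85.0 CPM) in *jmj26*, against 22 and 32 counts (27.2 and 56.5 CPM) in Col-0, and *CPN60A* (AT2G28000) had 48 and 31 counts in *jmj26*, against 3 and 9 counts in Col-0. The L protein gene of glycine decarboxylase *mtLPD1* (AT1G48030) had 21 and 15 counts in *jmj26*, against 1 and 2 counts in Col-0, a ratio of pooled counts of 5.91 (95% interval 1.87 to 29.99). The carbonic anhydrase *BCA4* (AT1G70410) had 19 and 14 counts in *jmj26*, against 0 and 1 counts in Col-0, a ratio of 16.3 (95% interval 2.72 to 661), with Col-0 under the floor. Of the 19 tested genes, 7 had log2 fold changes within 0.25 of 0, 6 of them with a gene on the opposite strand. They were 0.21 for the ribose phosphate isomerase AT1G71100, 0.22 for its paralogue AT2G01290, 0.24 for the Rubisco assembly gene AT4G04330, 0.23 for the chaperonin subunit gene AT3G13470, 0.07 for the cytosolic hydroxypyruvate reductase AT1G79870 and 0.04 for the dicarboxylate transporter AT5G12860, none with an unadjusted p below 0.05. The carbonic anhydrase gene AT1G23730 was lower in both *jmj26* libraries, with 1548 and 1178 counts (964 and 991 CPM) in *jmj26*, against 884 and 588 counts (1092 and 1037 CPM) in Col-0 and a log2 fold change of -0.12 (standard error 0.12), and it too did not have an unadjusted p below 0.05. These 7 genes were chosen after their values were seen.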

How the data were processed

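Whole-rosette RNA-seq libraries, 2 of *jmj26* and 2 of Col-0, were compared, with groups and replicate numbers from the sample labels. The authors trimmed reads with fastp, aligned them to Araport11 with STAR 2.7 while keeping multiple hits, and deposited the raw counts of TEcount for genes and single transposon copies. The TEcount version and strand setting were not given in the sources used here. A gene table counted with featureCounts 2.0.1, which the methods name, was not used here. Gene names, coordinates and sequences are from RefSeq's TAIR10.1, in which all 36632 gene identifiers were found.

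After filterByExpr and TMM scaling, gene rows were tested with glmQLFTest of edgeR 4.0.16 in R 4.3.3 over 5232 rows, with Benjamini-Hochberg adjustment and a threshold of 0.05. CPM are relative to the TMM-scaled gene counts of a library, except that floors are relative to all its counts. Total counts ranged from 740909 to 1998601, and the biological coefficient of variation was 16.6%. On simulated counts with 200 of 5232 rows changed by a log2 fold change of 2, TMM scaling and the test recovered 91.5% with 4 false calls. The filter was not applied to the simulated counts. They had 1 dispersion for all rows and no shift like that between the Col-0 libraries, which can overstate the recovery. Ratios of pooled counts carry exact binomial intervals and shares carry 95% Wilson intervals (scipy 1.17.1).

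All 37 genes are named, with the genes opposite to them and up to 8 tested genes of the other pathway list with the smallest p. Members and lists were chosen with earlier results of these data known. The alternatives were other filters, scalings and row sets, DESeq2 1.42.0, a robust fit, omission of single libraries, and a block for the replicate number. What libraries with the same number share is not given in the labels, and their deviations correlated at -0.16 across gene rows, which are not independent replicates. Figures were drawn with matplotlib 3.10.9 and coding sequences were aligned with biopython 1.88.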

Additional observations from a re-analysis of the deposited data

How the results depend on the processing

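The number of gene rows with an adjusted p below 0.05 was 3 of 5232 in edgeR's quasi-likelihood test. It was 592 of 22317 when every row with at least 1 count was tested, and 0 of 3365 where each library had to hold at least 10 counts. With only the rows without a gene on the opposite strand it was 1 of 1263. Of 5232 rows it was 1 with gene and transposon rows together, 8 with DESeq2 and 19 with a robust fit. Leaving out 1 library at a time gave 1 to 445. Of the 37 genes, 0 had an adjusted p below 0.05, against 21 without a filter, 1 with DESeq2 (*PGK1*) and 0 to 21 when 1 library was left out. The count of 25 genes higher in *jmj26* with an unadjusted p below 0.05 was 10 of 11 where each library had to hold at least 10 counts. It was 16 with scaling from the rows without a gene on the opposite strand, 10 of 24 when only those rows were fitted, and 13 with DESeq2. By the same rule, 13.6% of all tested rows were called in edgeR's quasi-likelihood test, and 4.37% where each library had to hold at least 10 counts. The share was 8.75% with that scaling, 19.8% when only those rows were fitted and 5.37% with DESeq2. The median log2 fold change of 1.53 was 1.08 with that scaling, 1.06 when only those rows were fitted, and 0.85 to 2.41 when 1 library was left out. The log2 fold change of *TIM* was -0.21 without *jmj26* replicate 2 and 1.37 without Col-0 replicate 1, the ends of its range. Among the values of the 30 genes tested with all libraries, 369 kept their direction and side of the threshold, 55 reached an adjusted p below 0.05, and 1, that of *TIM*, changed sign. Of the other 7 genes, AT1G80380 was at -0.46 without Col-0 replicate 1 and *CP12-2* at -0.20 without Col-0 replicate 2, against 0.20 and 0.11 without a filter. The cause of these changes was not tested, beyond the fewer rows or libraries that some settings use.

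When the replicate number entered as a block, 64 gene rows and 4 of the 37 genes (*RCA*, *PGK1*, *HCEF1* and *GGT1*) had an adjusted p below 0.05. With the numbers crossed, a pairing chosen after seeing the data, 152 gene rows and 8 of the 37 genes did. The labels give no pairing beyond the number.

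Low counts limit these values, since 7 of the 37 genes did not pass the filter, and counts of 3 correspond to 1.501 and 2.004 CPM in *jmj26* and to 2.94 and 4.05 CPM in Col-0.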
